A study of Mus musculus with 39 samples.

Results

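The genes described here were Trp53, 6 genes known as p53 targets (Mdm2, Bax, Bbc3, Pmaip1, Phlda3 and Ccng1) and the 3 Gadd45 genes, 10 of the 30053 array features tested. They were taken by name, as the probes whose gene name in the scanner files was one of these symbols. The rule used no threshold on a measured value, but the list was drawn up with earlier results of these data known. Each of the 10 genes had 1 probe, and all 10 passed the filter on low signals.

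Transcript levels were measured on 39 one-colour microarrays of mouse oocytes and preimplantation embryos, each hybridised with RNA of 100 pooled oocytes or embryos. Embryos came from in vitro fertilization of B6D2F1 oocytes with ICR spermatozoa. The unfertilized GV and MII oocytes carry the same strain label, B6D2F1 x ICR, although an oocyte before fertilization holds no ICR contribution. The controls were untreated and covered GV and MII oocytes and 1-cell, 2-cell, 4-cell and 8-cell embryos, morulae and blastocysts, with 3 arrays each. T247, an inhibitor aimed at HDAC3, and MGCD0103, an inhibitor aimed mainly at the class I enzymes HDAC1, HDAC2 and HDAC3, were given at 10 µM for 6 h from 4 h after insemination. T247-treated embryos were collected at 12 h (1-cell), 24 h (2-cell) and 48 h (4-cell), and MGCD0103-treated embryos at 12 and 24 h, with 3 arrays each; MGCD0103 was not analysed here at the 4-cell stage. All embryo groups shared the same cross, and oocytes and embryos were pooled, so no value belongs to a single oocyte or embryo.

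The p53 protein, the product of Trp53, is a transcription factor that is stabilised by DNA damage and other stress. Mdm2 encodes the ubiquitin ligase that keeps p53 low and is itself a p53 target. Bax encodes a pore-forming effector of the mitochondrial death pathway, and Bbc3 (PUMA) and Pmaip1 (NOXA) encode BH3-only proteins that act on the BCL2 family. Phlda3 encodes a pleckstrin-homology protein that restrains AKT, and Ccng1 encodes cyclin G1. Gadd45a, Gadd45b and Gadd45g encode small stress-response proteins that bind the kinase MAP3K4, CDK1 and PCNA. Gadd45a is a classical p53 target, whereas Gadd45b and Gadd45g respond to stress largely through other pathways.

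The promoter windows of the 3 Gadd45 genes and Phlda3 are shown because most of the treatment differences called fell on these genes. RefSeq windows (build GRCm38.p6) of 250 bases before to 50 bases after the transcription start were at hand for 9 of the 10 genes, in 11 windows, since Bbc3 had 3. The 250 bases before the start are printed 5′ to 3′, and capitals mark a p53 consensus half-site without mismatch, searched on both strands.
Gadd45a, chr6:67037408-67037657, minus strand: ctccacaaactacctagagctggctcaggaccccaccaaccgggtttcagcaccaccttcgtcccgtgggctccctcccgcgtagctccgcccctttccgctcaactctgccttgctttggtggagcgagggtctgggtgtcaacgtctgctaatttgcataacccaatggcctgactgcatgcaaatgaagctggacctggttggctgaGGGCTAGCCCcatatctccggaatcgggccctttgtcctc
Gadd45b, chr10:80929841-80930090, plus strand: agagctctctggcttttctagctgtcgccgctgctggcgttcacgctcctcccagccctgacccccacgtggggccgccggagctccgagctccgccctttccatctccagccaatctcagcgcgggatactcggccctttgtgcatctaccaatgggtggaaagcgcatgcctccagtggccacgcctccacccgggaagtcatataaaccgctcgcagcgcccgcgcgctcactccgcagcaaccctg
Gadd45g, chr13:51846425-51846674, plus strand: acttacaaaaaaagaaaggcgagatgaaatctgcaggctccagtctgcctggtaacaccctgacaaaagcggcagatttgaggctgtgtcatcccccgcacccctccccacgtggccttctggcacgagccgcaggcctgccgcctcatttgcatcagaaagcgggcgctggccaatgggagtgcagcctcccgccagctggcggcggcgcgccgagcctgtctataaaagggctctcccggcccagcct
Phlda3, chr1:135765835-135766084, plus strand: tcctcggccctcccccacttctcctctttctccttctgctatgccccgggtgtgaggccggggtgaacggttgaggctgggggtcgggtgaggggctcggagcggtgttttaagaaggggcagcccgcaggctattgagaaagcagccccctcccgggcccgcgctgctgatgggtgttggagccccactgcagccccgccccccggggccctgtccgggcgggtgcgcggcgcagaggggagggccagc

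An exact p53 half-site, 10 bases long and its own reverse complement as a pattern, was present in 5 of the 11 windows and in 8.36% of the 32851 RefSeq windows of the same length. With 1 mismatch allowed outside the 4 central bases, 7 of the 11 windows and 39.6% of all windows held one. Of the 4 genes printed above, only Gadd45a held an exact half-site, 40 bases before its start. The exact half-sites of the other 4 genes with one are given because they show which of the p53 targets carry the pattern near the start.
Trp53, chr11:69580284-69580293, plus strand: GGACTTGCCC
Mdm2, chr10:117710935-117710944, minus strand: GAACTTGCCT
Bax, chr7:45467090-45467099, minus strand: AGGCAAGCTT
Ccng1, chr11:40755462-40755471, minus strand: GGGCAAGCCT
These lay 75, 186, 201 and 185 bases before the respective starts. No exact half-site was present in the windows of Bbc3, Phlda3, Gadd45b or Gadd45g. A match is a run of letters and not a shown binding site, and sites outside these windows were not searched.

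The arrays carry 60-base probes, with positions on build mm9 in the array design. Trp53 was read at chr11:69404204-69404263 and Ccng1 at chr11:40562427-40562486. Bax was read at chr7:52717122-52717181, and Bbc3, on the same chromosome, at chr7:16903403-16903462. Mdm2 and Gadd45b were read on chromosome 10, at chr10:117126010-117126069 and chr10:80394367-80394426. Phlda3 was read at chr1:137665642-137665701, Gadd45a at chr6:66985376-66985435 and Gadd45g at chr13:51943733-51943792. Exon and UTR annotation on mm9 was not used here, and levels are compared within a probe and not between probes.

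Levels below are smooth-quantile-normalised log2 intensities, and an LFC is the difference of 2 condition means on that scale. A difference was called when the LFC was at least 1 in size and the Benjamini-Hochberg adjusted p from limma, over all 30053 features, was below 0.05. Of the 390 values of the 10 genes, 368 were well above background, and the values that were not came from Phlda3, Gadd45g and 1 array of Bbc3. Control replicates 1 to 3 of every stage lay on slides 1 to 3, while T247 lay on slides 4 and 5 and MGCD0103 on slide 6, so inhibitor and slide cannot be told apart. The first 2-cell control array stood apart from its replicates, with correlations within this group down to 0.948 against at least 0.983 in each other group. All 8 oocyte markers were well above background in every oocyte, 1-cell and 2-cell array. Of 8 cumulus and granulosa cell markers, 5 were well above background in each GV array and 3 in each MII array. Between 2 and 4 were so in the 1-cell and 2-cell arrays, with 4 in each 1-cell array, and 1 in each 4-cell array. Of 8 blastocyst markers, 6 to 7 were well above background in GV oocytes and 6 in MII oocytes. Of 5 sperm markers, 4 were so in each blastocyst array. A signal well above background thus did not by itself mark a cell type. Fewer cells of a type and less RNA per cell cannot be told apart in such pools.

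**Figure D1:**
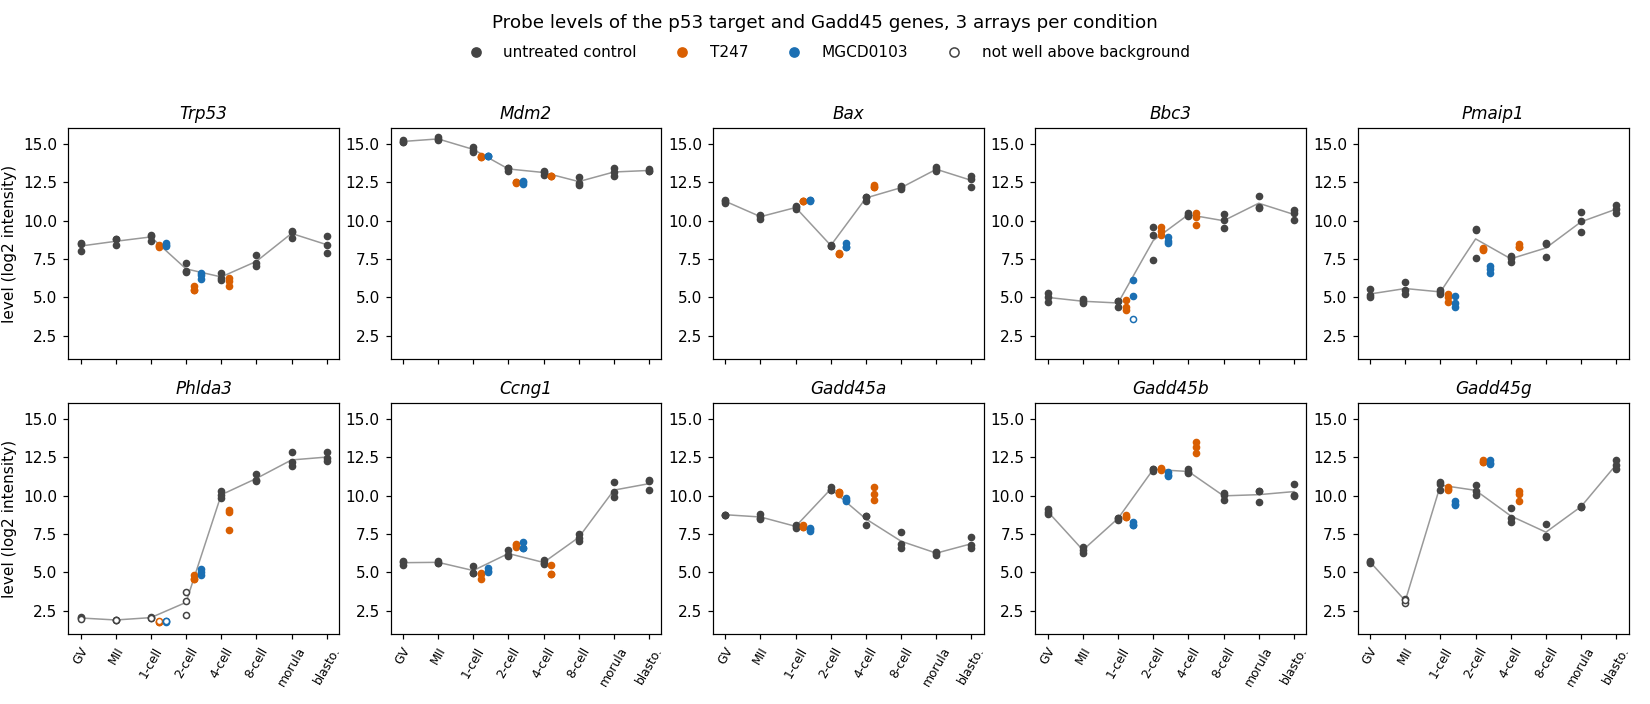
Level of each gene (log2 intensity, vertical axis) on every array by stage (horizontal axis); grey points and line are the untreated control and its mean, orange T247, blue MGCD0103, and open points are signals not well above background. Phlda3 rose from 3.05 at the 2-cell to 12.50 at the blastocyst stage in controls, and Bax had its lowest stage mean, 8.38, at the 2-cell stage.

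Untreated development was examined first, since it sets the levels against which each inhibitor was read. Over the 7 steps between consecutive stages, 32 of 70 tests of these genes were called (45.7%), against 30.3% of all features. The step with the most calls led from the 1-cell to the 2-cell embryo, the time of zygotic genome activation in the mouse. There 5 genes rose and 3 fell, against 18.3% and 25.4% of all features (43.7% together). In the other steps 2 of 10 genes were called from GV to MII oocytes (38.8% of all features), 2 from MII oocytes to 1-cell embryos (17.5%), 6 from the 2-cell to the 4-cell embryo (50.3%), 6 at the 8-cell step (11.7%), 7 at the morula step (28.1%) and 1 at the blastocyst step (22.3%). At the 8-cell step the Trp53 LFC was 0.98 under quantile normalization, 0.94 under 75th percentile scaling and 0.66 with normexp background correction. With array weights or the arrays of the compared groups only it was 0.97. Without the first 4-cell or the second 8-cell array it was 0.82 and 0.79. The Gadd45g LFC was -0.87 with normexp, and -0.77 and -0.74 without the second 4-cell or the first 8-cell array. None of these was called.

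Trp53 and Mdm2, the transcription factor and its inhibitor, both fell in the 2-cell embryo. Trp53 was 9.02, 9.08 and 8.70 on the 1-cell control arrays and 7.22, 6.71 and 6.64 on the 2-cell arrays, an LFC of -2.08 ± 0.22 (SE, n = 3 per stage; adjusted p = 2.55e-09, limma). Mdm2 was 14.48, 14.77 and 14.61 and then 13.23, 13.40 and 13.42, an LFC of -1.27 ± 0.12 (SE, adjusted p = 1.89e-10, limma). Neither gene's stages overlapped. Under quantile normalization the Mdm2 LFC was -0.91 and under 75th percentile scaling -0.95, short of the limit of 1.

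Bax, the effector, fell at the 2-cell stage and then returned. Its control values were 10.72, 10.95 and 10.86 in 1-cell embryos, 8.37, 8.43 and 8.34 in 2-cell embryos and 11.29, 11.55 and 11.56 in 4-cell embryos. The LFC was -2.47 ± 0.13 for the first step (adjusted p = 3.79e-16) and 3.09 ± 0.13 for the second (adjusted p = 9.92e-19, limma). The 2-cell stage was the lowest of the 8 stages for Bax, with no overlap with the next.

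The BH3-only genes moved the other way. Bbc3 was 4.75, 4.77 and 4.40 at the 1-cell stage and 7.46, 9.55 and 9.09 at the 2-cell stage, an LFC of 4.06 ± 0.43 (adjusted p = 1.72e-09, limma). Pmaip1 was 5.36, 5.24 and 5.48 and then 7.54, 9.41 and 9.46, an LFC of 3.44 ± 0.34 (adjusted p = 5.62e-10, limma). In both genes the first 2-cell array was the low one, and even that array lay above every 1-cell array. Without it the LFC was 4.81 for Bbc3 and 4.20 for Pmaip1.

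At the 4-cell stage Bbc3 rose by a further 1.68 ± 0.43 (adjusted p = 0.00104, limma), but without the first 2-cell array this LFC was 0.93 with an adjusted p of 0.0508 and was not called. Pmaip1 fell by 1.29 ± 0.34 (adjusted p = 0.00162, limma), and its 4-cell and 2-cell arrays overlapped. Its LFC was -0.90 under quantile normalization and -0.87 and -0.93 without 2-cell control replicate 2 and replicate 3, and it was not called there, nor at -1.14 with the arrays of the compared groups only (adjusted p = 0.11, limma). Without replicate 1, the array that stood apart, it was -2.06 and called. Of the 32 called steps, 31 ran the same way within each of the 3 slides, and the exception was this Pmaip1 step, with a difference of 0.03 on slide 1.

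Phlda3 was not well above background in GV and MII oocytes or in 1-cell and 2-cell control embryos. Its 4-cell control values were 9.81, 10.30 and 10.03, at least 64.7-fold above the 2-cell stage (adjusted p = 2.31e-19, limma). The bound sets the mean of the 3 arrays of the brighter condition against the mean of the dimmer arrays. Each dimmer array is taken at its lowest signal well above background or, where higher, at the gene's own value. Its mean was 11.11 ± 0.25 (SD, n = 3) at the 8-cell stage and 12.31 ± 0.47 (SD) in the morula, with called LFCs of 1.07 ± 0.28 and 1.20 ± 0.28 for these steps (SE, adjusted p = 0.00393 and 0.000607, limma). The first was 0.81 under quantile normalization, 0.97 under 75th percentile scaling, 0.95 with the arrays of the compared groups only, 0.86 without the first 4-cell array and 0.80 without the third 8-cell array. The second was 0.42 and 0.43 under the same 2 scalings, 0.99 without the first 8-cell array and 0.86 without the second morula array. Neither was called in these fits. Morula and blastocyst values of Phlda3 overlapped.

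Ccng1, the cyclin G1 gene, rose at the 8-cell and morula steps. The LFC of the first was 1.63 ± 0.20 (adjusted p = 5.29e-07, limma), and 0.94 with normexp background correction, where it was not called. Its mean rose from 7.28 ± 0.23 (SD, n = 3) at the 8-cell stage to 10.35 ± 0.50 (SD) in the morula, an LFC of 3.07 ± 0.20 (SE, adjusted p = 2.08e-13, limma). The smaller 2-cell rise of 1.11 ± 0.20 (adjusted p = 2.47e-05, limma) was 0.92 under quantile normalization and 0.48 with normexp background correction, and 0.97 and 0.86 without the first 1-cell or the second 2-cell array, and 0.97 with the arrays of the compared groups only, and was not called in these fits.

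At the morula step 7 genes rose and 0 fell (22.5% and 5.58% of all features), and the median feature had an LFC of 0.35. Under quantile normalization and under 75th percentile scaling 2 of these 7 calls remained, those of Trp53 and Ccng1, while the median feature moved by -0.04 and -0.41. Of all features called at this step, 80.1% were higher, against 51.6% and 36.8% under these scalings.

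The 3 Gadd45 genes followed different courses. Gadd45g fell from 5.68 ± 0.04 (SD, n = 3) in GV oocytes to a signal not well above background on any MII array, at least 3.66-fold lower (adjusted p = 2.20e-11, limma). In 1-cell controls it was 10.90, 10.36 and 10.77, at least 117-fold above MII oocytes (adjusted p = 2.80e-20, limma). These bounds on the MII oocytes are not strict. On the first MII array the lowest signal well above background was 1.93, below the Gadd45g value of 3.25. The Gadd45g mean was lowest after fertilization in 8-cell embryos, at 7.62 ± 0.45 (SD). It was highest in the blastocyst, at 12.01 ± 0.31 (SD), an LFC of 2.73 ± 0.22 over the morula (SE, adjusted p = 1.99e-11, limma).

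Gadd45b fell from 8.96 ± 0.18 (SD, n = 3) in GV oocytes to 6.46 ± 0.21 (SD) in MII oocytes and rose to 8.52 ± 0.07 (SD) in 1-cell embryos. At the 2-cell stage it was 11.74, 11.75 and 11.61, an LFC of 3.18 ± 0.19 (SE, adjusted p = 8.71e-15, limma). It was 11.57 ± 0.14 (SD) at the 4-cell stage and fell by 1.59 ± 0.19 at the 8-cell stage (SE, adjusted p = 3.40e-07, limma).

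Gadd45a peaked at the 2-cell stage. Its control values were 8.09, 7.89 and 8.01 in 1-cell embryos, 10.36, 10.55 and 10.36 in 2-cell embryos and 8.64, 8.68 and 8.11 in 4-cell embryos. The LFC was 2.43 ± 0.21 and then -1.95 ± 0.21 (SE, adjusted p = 1.63e-11 and 1.12e-09, limma), with no overlap at either step.

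The step from GV to MII oocytes depended on the scaling. The median feature moved by -0.66, and 1.40% of the called features were higher in MII oocytes, against 53.5% under quantile normalization and 72.9% under 75th percentile scaling. The falls of Gadd45b and Gadd45g were called under both, but with normexp background correction the Gadd45g LFC was -0.70 and not called. Trp53, Mdm2, Pmaip1, Ccng1 and Gadd45a, none of them called here, were called higher in MII oocytes under both scalings.

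**Figure D2:**
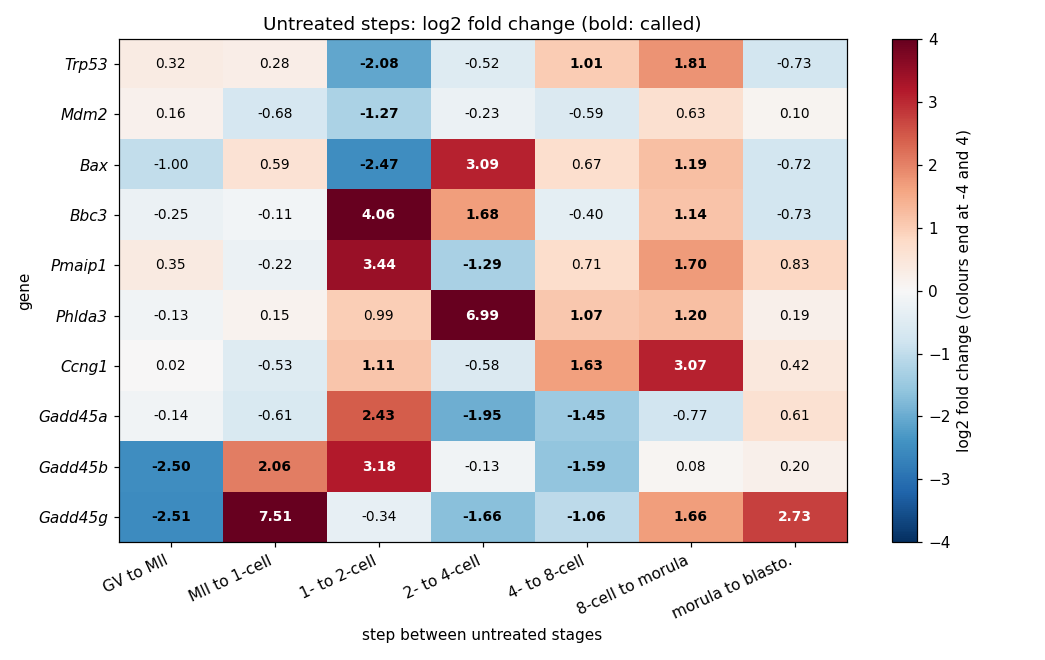
LFC (numbers and colour, log2 scale; colours end at -4 and 4) of each gene (rows) at each step between consecutive untreated stages (columns), with called differences in bold. The step from the 1-cell to the 2-cell stage holds the most calls, 8 of 10. The values of Gadd45g at the first 2 steps, and of Phlda3 up to the 4-cell embryo, rest on at least 1 stage that was not well above background, so that their size is not measured exactly.

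The effect of each inhibitor on these genes was then examined stage by stage. Over the 5 comparisons with control, 11 of 50 tests were called (22.0%), against 16.2% of all features. The median LFC of the 10 genes ran from -0.32 to 0.26 over these comparisons, and that of all features from -0.19 to 0.08. Quantile normalization kept all 11 calls, 75th percentile scaling 10 and normexp background correction 8.

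Few differences were called at the 1-cell stage. With T247, 0 of 10 genes were called by limma (8.19% of all features), 3 had an unadjusted p under 0.05 and 2 an adjusted p under 0.05. These 2 were Mdm2, with an LFC of -0.46 ± 0.12 (SE, n = 3 per group), and Bax, with an LFC of 0.45 ± 0.13. With MGCD0103 their LFCs were -0.41 ± 0.12 and 0.46 ± 0.13.

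With MGCD0103, 1 of 10 genes was called at the 1-cell stage (4.95% of all features). Gadd45g was 9.65, 9.38 and 9.48 on the MGCD0103 arrays and 10.90, 10.36 and 10.77 on the control arrays. All treated arrays lay below all control arrays, an LFC of -1.17 ± 0.22 (SE, adjusted p = 0.000392, limma). With T247 the Gadd45g values were 10.36, 10.57 and 10.44, and they overlapped the controls.

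Bbc3 spread widely on the MGCD0103 arrays of the 1-cell stage, at 3.62, 5.10 and 6.13, and the lowest of these was not well above background. Its LFC there was 0.31, with a 95% interval from -0.57 to 1.18.

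At the 2-cell stage Gadd45g turned in the opposite direction. It was 10.70, 10.29 and 10.02 in controls, 12.32, 12.17 and 12.16 after T247 and 12.05, 12.14 and 12.28 after MGCD0103. Every treated array lay above every control array. The LFC was 1.88 ± 0.22 (3.69-fold, adjusted p = 3.61e-08) for T247 and 1.82 ± 0.22 (3.53-fold, adjusted p = 6.20e-08, limma) for MGCD0103.

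The difference between the Gadd45g LFCs of these stages was itself tested. It was 2.11 ± 0.31 with T247 (adjusted p = 5.05e-06) and 2.99 ± 0.31 with MGCD0103 (adjusted p = 1.10e-08, limma). In controls Gadd45g had an LFC of -0.34 ± 0.22 over the same step, which was not called.

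Phlda3 was also higher with either inhibitor at the 2-cell stage. Its values were 4.60, 4.55 and 4.83 after T247 and 4.85, 5.05 and 5.22 after MGCD0103, all well above background. The control values of 2.26, 3.17 and 3.74 were not well above background on any array, so the rise was at least 1.55-fold with T247 (adjusted p = 2.03e-05) and at least 2.01-fold with MGCD0103 (adjusted p = 8.47e-07, limma). With normexp background correction the LFCs were 0.23 and 0.39 and neither was called, and without the first 2-cell control array they were 1.14 and 1.52 and both were.

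Trp53 fell with T247 at the 2-cell stage. It was 5.50, 5.47 and 5.73 after T247 against 7.22, 6.71 and 6.64 in controls, an LFC of -1.29 ± 0.22 (SE, adjusted p = 2.32e-05, limma). It was -0.89 under 75th percentile scaling and -0.70 with normexp background correction, where it was not called. After MGCD0103 Trp53 was 6.59, 6.45 and 6.18, an LFC of -0.45 ± 0.22 that was not called (adjusted p = 0.103, limma).

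Mdm2, the p53 ubiquitin ligase gene, was below the limit of a call with both inhibitors. It was 12.47, 12.53 and 12.51 after T247, 12.36, 12.55 and 12.51 after MGCD0103 and 13.23, 13.40 and 13.42 in controls. The LFCs of -0.85 ± 0.12 and -0.88 ± 0.12 had adjusted p of 1.09e-06 and 6.26e-07 (limma) but were smaller than 1 and so were not called. No treated array reached a control array.

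Pmaip1 fell with MGCD0103 at the 2-cell stage. It was 6.56, 7.05 and 6.87 after MGCD0103, below all control arrays at 7.54, 9.41 and 9.46, an LFC of -1.98 ± 0.34 (SE, adjusted p = 2.44e-05, limma). After T247 it was 8.12, 8.21 and 8.07, with an LFC of -0.67 ± 0.34 that was not called. Without the first 2-cell control array, the low one, the LFC was -2.73 for MGCD0103 and -1.43 for T247, and both were called.

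Bbc3, which like Pmaip1 encodes a BH3-only protein, was 9.59, 9.30 and 9.06 after T247 and 8.54, 8.66 and 8.94 after MGCD0103, within the range of the control arrays but for the first T247 array. Its LFCs of 0.62 and 0.01 had 95% intervals from -0.26 to 1.50 and from -0.87 to 0.89. Without the first control array they were -0.14 and -0.74. The T247 value was called higher under quantile normalization, at 1.09, and without the second control array, at 1.15.

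Ccng1 had LFCs of 0.54 and 0.49 with T247 and MGCD0103 (adjusted p = 0.0332 and 0.0499, limma), smaller than 1 and not called, and of 0.28 and 0.24 without the first control array. For Bax the T247 LFC was -0.55 ± 0.13 (adjusted p = 0.000872, limma), also not called. Gadd45a and Gadd45b were not called at this stage with either inhibitor, and their LFCs ran from -0.70 to 0.03. In all, 3 of 10 genes were called with T247 (24.1% of all features) and 3 of 10 with MGCD0103 (26.5%).

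At the 4-cell stage, measured for T247 only, all 3 Gadd45 genes rose. Gadd45a was 10.10, 10.56 and 9.72 after T247 and 8.64, 8.68 and 8.11 in controls, an LFC of 1.65 ± 0.21 (3.14-fold, adjusted p = 3.23e-07, limma). Gadd45b was 13.17, 13.48 and 12.78 against 11.51, 11.72 and 11.46, an LFC of 1.58 ± 0.19 (2.98-fold, adjusted p = 2.41e-07, limma). Gadd45g was 10.08, 10.32 and 9.63 against 8.54, 9.22 and 8.26, an LFC of 1.33 ± 0.22 (2.52-fold, adjusted p = 1.80e-05, limma). In none of the 3 did treated and control arrays overlap, as these values show. The share of all features without overlap was not counted.

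The T247 values of Gadd45a at the 4-cell stage were close to its 2-cell level, with means of 10.13 and 10.20, whereas the control fell from 10.42 to 8.48. Gadd45b in contrast went above its 2-cell T247 mean of 11.73, to 13.14. Gadd45g fell after T247 from 12.22 to 10.01, beside a control fall from 10.34 to 8.67.

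Phlda3 reversed. It was 8.90, 7.76 and 9.07 after T247 and 9.81, 10.30 and 10.03 in 4-cell controls, below every control array, an LFC of -1.47 ± 0.28 (SE, adjusted p = 0.000109, limma). Between 2-cell and 4-cell embryos its fitted T247 LFC changed by -3.07 ± 0.39 (adjusted p = 7.02e-07, limma), and by -1.59 with normexp background correction, also called. The 2-cell controls behind this change were not well above background on any array, so its size is not measured exactly.

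Of the other genes at the 4-cell stage, Bax was 12.17, 12.20 and 12.28 after T247 against 11.29, 11.55 and 11.56, an LFC of 0.75 ± 0.13 (adjusted p = 4.00e-05, limma) that was smaller than 1. Trp53 and Mdm2 had LFCs of -0.30 ± 0.22 and -0.23 ± 0.12 and were not called. Pmaip1 had an LFC of 0.85 ± 0.34 (adjusted p = 0.0537, limma), and of 1.02, then called, without the third control array. In all, 4 of 10 genes were called (17.1% of all features).

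The change of each inhibitor's LFC between stages was called for 3 of 10 genes with T247 over the first step, 1-cell to 2-cell (17.2% of all features), for 3 of 10 with MGCD0103 (19.2%), and for 6 of 10 with T247 over the second, 2-cell to 4-cell (22.1%). Over the 3 changes together this was 12 of 30, against 19.5% of all features. Gadd45g, Phlda3 and, with opposite sign, Bax or Pmaip1 made up the first step, and all but Trp53, Mdm2, Bbc3 and Gadd45g the second. The T247 change of Gadd45g over the second step was -0.55 ± 0.31 and not called.

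**Figure D3:**
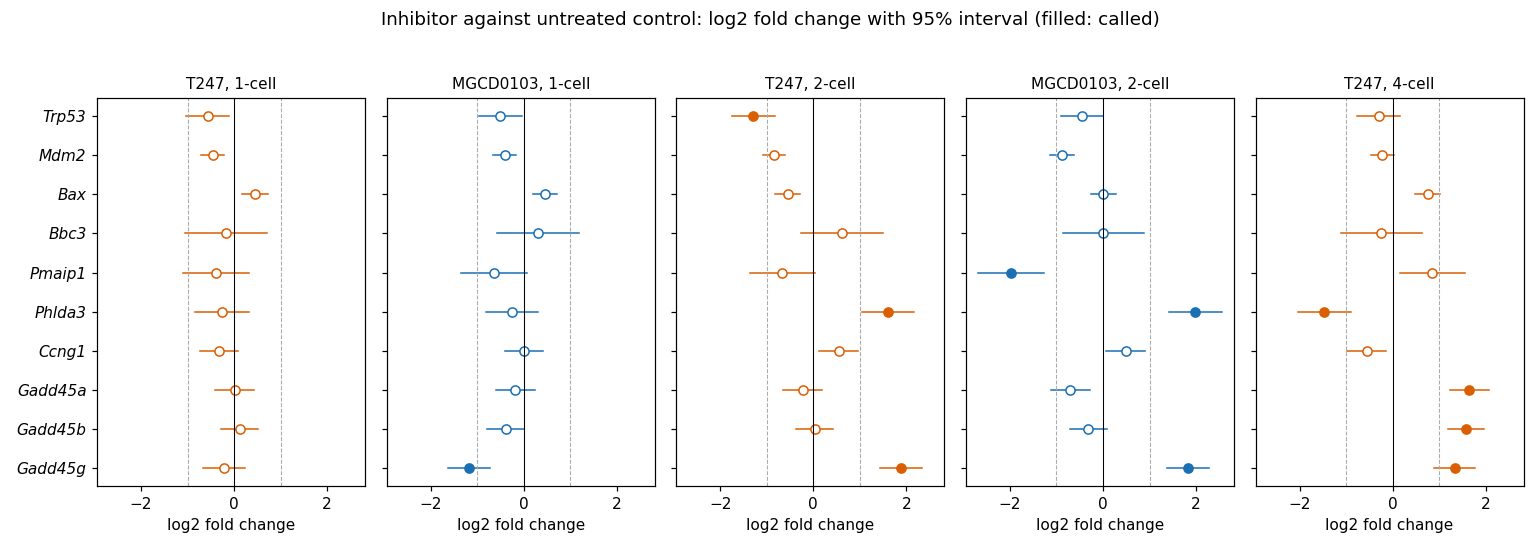
LFC against untreated control (horizontal axis, log2 scale) with its 95% interval for each gene (vertical axis) in each of the 5 comparisons; filled points are called, and dashed lines mark LFCs of -1 and 1. The 1-cell panels hold 1 filled point, Gadd45g with MGCD0103 at -1.17, and the 4-cell panel holds the 3 Gadd45 genes on the right and Phlda3 at -1.47 on the left.

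**Figure D4:**
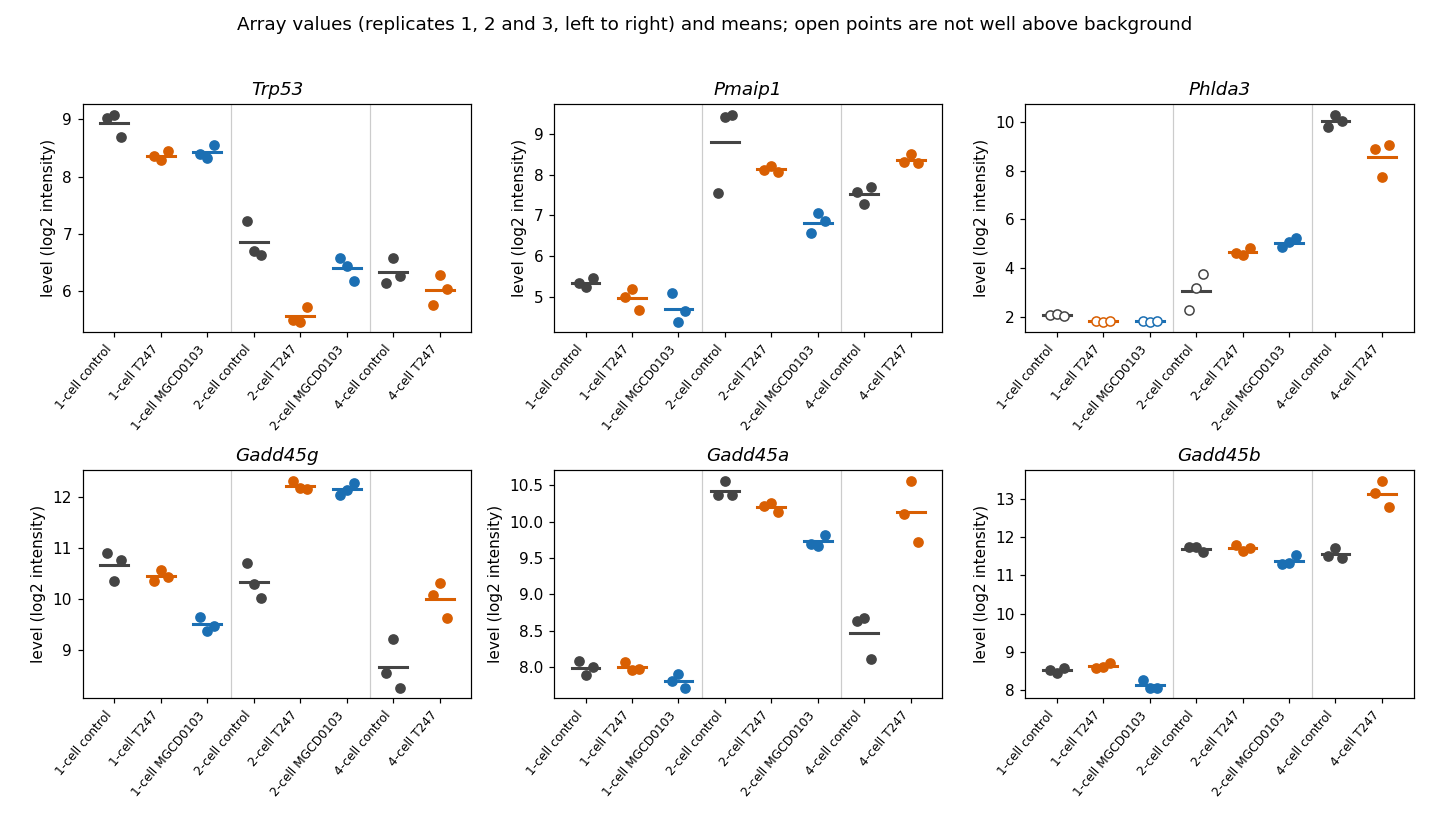
Level (log2 intensity) on each array, replicates 1 to 3 from left to right, and the condition mean as a bar, for the 6 genes called at the 2-cell or 4-cell stage; open points are not well above background. The first 2-cell control array is the low one for Pmaip1 (7.54) and Phlda3 (2.26), and the treated arrays of Gadd45g lie above the controls in 2-cell and 4-cell embryos and, with MGCD0103, below them at the 1-cell stage.

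MGCD0103 and T247 were compared with each other at the same dose and times, over 20 tests of these genes, of which 1 was called (3.02% of all features over both stages). The inhibitors lay on different slides here too, so compound and slide cannot be told apart. The call was Pmaip1 in 2-cell embryos, lower with MGCD0103, at an LFC of -1.31 ± 0.34 (adjusted p = 0.00694, limma; 5.75% of all features). It was -0.93 with normexp background correction and not called there. At the 1-cell stage 0 of 10 genes were called by limma (0.293% of all features), and 2 had an unadjusted p under 0.05. Gadd45g there had an LFC of -0.95 ± 0.22 with MGCD0103 against T247 (adjusted p = 0.0392, limma), and -1.07 under quantile normalization, where it was called. At the 2-cell stage Trp53 had an LFC of 0.84 ± 0.22 and Bax of 0.56 ± 0.13, higher with MGCD0103 and with adjusted p of 0.00811 and 0.00263 (limma), both smaller than 1. The Gadd45g difference at the 2-cell stage was -0.06, with a 95% interval from -0.51 to 0.38, and that of Mdm2 was -0.03, from -0.28 to 0.22.

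The surrounding pathway was read from 6 lists of genes. Among 20 regulators of p53, 0 were called with T247 at the 1-cell stage and 0 with MGCD0103 (8.19% and 4.95% of all features). With each inhibitor 5 had an unadjusted p under 0.05 (limma). Among all features tested, 10.3% were called higher and 13.7% lower with T247 at the 2-cell stage, 13.1% and 13.4% with MGCD0103, and 12.4% and 4.76% with T247 at the 4-cell stage. In 2-cell embryos 1 regulator rose and 2 fell with T247, and 1 fell with MGCD0103. Sirt1, which encodes a p53 deacetylase, fell by 1.44 ± 0.13 with T247 (adjusted p = 1.73e-10, limma), and Trp53bp1, the gene of the DNA break protein 53BP1, fell by 1.32 ± 0.12. Chek2, which encodes a checkpoint kinase that phosphorylates p53, fell by 1.44 ± 0.24 with MGCD0103 (adjusted p = 1.75e-05, limma). At the 4-cell stage 5 rose with T247 and 0 fell, among them Trp53bp2 (ASPP2), by 2.62 ± 0.54, and Cdkn2a, by 1.52 ± 0.48 (adjusted p = 0.000297 and 0.0134, limma). Trp53bp2 was well above background on 2 of 3 control arrays. The median LFC of the list lay between -0.25 and 0.08 in these comparisons, and that of all features between -0.19 and 0.08.

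Among 25 other p53 targets, 6 rose and 1 fell in 2-cell embryos after T247, and 5 rose and 2 fell with MGCD0103. Cdkn1a, the gene of the cell cycle inhibitor p21, rose with both, by LFCs of 1.70 ± 0.21 and 1.67 ± 0.21 (adjusted p = 1.04e-07 and 1.35e-07, limma). Fas, a death receptor gene, rose at least 1.16-fold with MGCD0103, since no control array was well above background. At the 1-cell stage 1 of the 25 rose and 1 fell with each inhibitor. Tnfrsf10b, the gene of the death receptor DR5, rose, by 2.11 ± 0.23 with T247 and by 1.70 ± 0.23 with MGCD0103 (adjusted p = 1.20e-07 and 7.07e-06, limma). Tnfrsf10b was well above background on 1 of 3 control arrays there, so these sizes are not measured exactly. Eda2r, a receptor gene of the same TNF receptor superfamily, fell, with T247 by at least 1.60-fold (adjusted p = 0.0272) and with MGCD0103 by at least 1.99-fold (adjusted p = 0.0432, limma). It was well above background on 1 of 3 control arrays and on 0 of 3 arrays of each inhibitor, so these bounds average in control arrays near background and are not strict. Its MGCD0103 and control arrays overlapped, a value named after it was seen. In 2-cell embryos Tigar and Pidd1, named 9630033F20Rik and Lrdd on the array, fell with MGCD0103, by 1.70 ± 0.20 and 2.14 ± 0.29. Tigar also fell there with T247, by 1.32 ± 0.2 (adjusted p = 2.5e-06, limma). At the 4-cell stage 2 rose and 3 fell with T247. Gdf15, a stress cytokine gene, and Sesn2 rose, by 1.55 ± 0.25 and 1.21 ± 0.23, and Perp and Sfn, an epithelial adhesion gene and the gene of 14-3-3 sigma, fell, by 1.85 ± 0.28 and 1.22 ± 0.15. Gdf15 was well above background on 1 of 3 control arrays, so its size is not measured exactly. In 2-cell embryos the median LFC of the list was -0.13 with T247 and 0.13 with MGCD0103, beside -0.19 and 0.05 for all features.

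Of the 5 pro-survival BCL2 genes, Mcl1 fell at the 2-cell stage with both inhibitors, by 1.17 ± 0.13 and 1.12 ± 0.13 (adjusted p = 9.61e-09 and 2.01e-08, limma). With MGCD0103, Bcl2l10 and Bcl2l1 rose, by 1.53 ± 0.27 and 1.16 ± 0.19. Bcl2 rose with T247 at the 4-cell stage, at least 1.03-fold, with 1 of 3 treated and 0 of 3 control arrays well above background. Of the 8 other effector and BH3-only genes, 1 rose and 1 fell with T247 and 2 rose and 1 fell with MGCD0103 at the 2-cell stage. Hrk, a BH3-only gene, rose with MGCD0103, at least 1.07-fold, with 2 of 3 treated and 0 of 3 control arrays well above background. With T247 Hrk was also called, with 1 of 3 treated arrays well above background. For Bcl2 and Hrk the bounds average in treated arrays near background, so they are not strict. Of 6 apoptosome and caspase genes, 0 were called at the 1-cell stage with T247 and 0 with MGCD0103 (8.19% and 4.95% of all features). With T247 1 was called in 2-cell embryos and with MGCD0103 0 (24.1% and 26.5%), and with T247 0 in 4-cell embryos (17.1%). The call was Casp9, which fell by 1.24 ± 0.21 in 2-cell embryos after T247 (adjusted p = 1.62e-05, limma). In 2-cell embryos 0 of the 6 had a positive LFC with either inhibitor, with a median LFC of -0.42 with T247 and -0.71 with MGCD0103, beside -0.19 and 0.05 for all features.

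Among 12 Gadd45 partners and MAP kinase genes, Cdk1 was called in both directions. It rose at the 1-cell stage, by 1.75 ± 0.32 with T247 and 1.46 ± 0.32 with MGCD0103, and fell by 1.84 ± 0.32 with MGCD0103 at the 2-cell stage (adjusted p = 0.000194, 0.00234 and 2.58e-05, limma). Cdk1 was well above background on 2 of 3 control arrays at the 1-cell stage. In 2-cell embryos after T247, Map2k3 rose by 1.50 ± 0.15, while Map2k7 and Gadd45gip1 fell, by 1.15 ± 0.24 and 1.73 ± 0.12. At the 4-cell stage, where the Gadd45 genes rose, 0 of these 12 were called by limma (17.1% of all features). Of the 12, 7 had an unadjusted p under 0.05. An adjusted p under 0.05 was found for 6, with LFCs smaller than 1 in size.

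The genes most like each member over the 13 condition means were found by Pearson's r, given as a description, since the conditions share stages and every feature passes through the same arrays. Bbc3 was closest to Gtf2e1 and N4bp3 (r = 0.994 each) and Mdm2 to Ddi2 (r = 0.985). Gadd45a was closest to Ankrd22 (r = 0.978) and Gadd45b to Apol7b (r = 0.978). The highest value for Gadd45g was 0.895, with 4933417C20Rik. Among the members themselves Bbc3 and Pmaip1 had the highest r, 0.906, and Mdm2 and Bbc3 the lowest, -0.850.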

How the data were processed

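RNA of 100 oocytes or embryos per sample was labelled with Cy3 and hybridised to 1-colour Agilent 60-mer arrays. The intensity values the authors deposited are background-subtracted, detrended signals of each spot, with low signals replaced by a surrogate, not normalised between arrays; the submitters' notes name Feature Extraction 9.5.1.1 and the file headers 10.7.1.1. The log2 values the authors deposited in the series matrix, filtered, filled in and normalised, were an alternative only, and they hold 8 of the 10 genes.

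Each array had 59305 spots for 55681 probes. Between 44.4 and 58.3% of the signals were well above background on an array, and 3 arrays per condition limit the precision. A probe was kept when positive and significant on all 3 arrays of at least 1 of 13 conditions, and each gene was read by its brightest probe. Log2 signals were smooth-quantile-normalised and fitted over the 39 arrays by limma (version 3.58.1, R 4.3.3), without fill-in. A call needed both a 2-fold difference and a Benjamini-Hochberg adjusted p below 0.05. The replicates are separate samples of pooled embryos. SE and p-values rest on 1 variance per gene, pooled over the 13 conditions and moderated across features, not on the compared groups alone. A group with a wider spread is therefore not reflected in its own SE. For Pmaip1 in 2-cell embryos the SD was 1.09 in controls, 0.0711 after T247 and 0.248 after MGCD0103.

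The 10 genes were named throughout. From each pathway list and comparison, up to 2 called genes per direction with the largest LFC and no overlap of the groups were listed. For each member the 2 features with the highest r were listed. Of both, some are given. The members and lists were chosen with earlier results of these data known. On simulated data of 30053 features, with 3 arrays per group, the fit recovered 64 to 78% of changes of 1.5 on the log2 scale and 94 to 100% of changes of 3. The simulated noise was independent, with 1 spread per gene, no slide effect and no array set apart. A small share of features was changed, so these rates may not hold for the data.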

Additional observations from a re-analysis of the deposited data

Results flagged for a closer look

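The change of an inhibitor's LFC between stages passed its own test in 12 cases, by limma over all features with the same limits. They are listed because the effect differed between 2 stages under the same contrast. Across the 3 changes tested, 19.5% of all features were called. Over the first step, 1-cell to 2-cell, the change with T247 was 2.11 for Gadd45g and 1.87 for Phlda3, and it was -1.0 for Bax, at the limit. With MGCD0103 it was 2.99 for Gadd45g, 2.24 for Phlda3 and -1.34 for Pmaip1 (adjusted p = 0.042). Phlda3 was not well above background on any 1-cell array or on any 2-cell control array, so the size of its change at either step is not measured exactly.

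Over the second step, 2-cell to 4-cell, the T247 change was 1.88 for Gadd45a, 1.55 for Gadd45b, 1.30 for Bax and 1.52 for Pmaip1. It was -3.07 for Phlda3 and -1.10 for Ccng1. For Bax the LFC ran from 0.45 at the 1-cell stage to -0.55 and then 0.75. Each change shares its control arrays with the comparisons it is built from. Without the first 2-cell control array the Pmaip1 changes were -2.10 with MGCD0103 and 2.29 with T247, and the Ccng1 change was -0.83 and not called. Without the second 2-cell control array the Pmaip1 changes were -0.92 and 1.10 and the Bax change over the first step was -0.86, and none of these was called. With the third left out, the Pmaip1 changes were -0.99 and 1.16 and the Bax change -0.99, again not called. The Bax change over the first step lost its call in 14 of 26 alternatives, among them quantile normalization (-0.86), 75th percentile scaling (-0.59), normexp background correction (-0.88) and array weights (-0.96).

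Of the 12 calls, 9 remained under quantile normalization, and 8 each under 75th percentile scaling and with normexp background correction. Beside Bax over the first step, quantile normalization lost Pmaip1 with T247 over the second (1.22, adjusted p = 0.0664, limma) and Gadd45b (0.88). The 75th percentile scaling lost Pmaip1 with MGCD0103 (-0.94), Pmaip1 with T247 (1.10) and Bax over the second step (0.89). With normexp the calls of Phlda3 over the first step (0.29 and 0.51) and of Ccng1 (-0.62) were lost. With the arrays of the compared groups only, both Pmaip1 calls were lost (-1.27 and 1.37). The part of the slides in these changes was not tested beyond these values.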

How the results depend on the processing

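The fit was repeated under 15 other settings, of which the fixed slide block used untreated arrays alone. Each of 39 arrays was also removed in turn, and only the comparisons holding that array were refitted. Each call against control thus had 17 to 20 refits, and 8 of the 11 calls held in all of theirs. The exceptions were Trp53 with T247 and Phlda3 with both inhibitors at the 2-cell stage. Phlda3 with T247 had an LFC of 0.92 with array weights. These weights were 0.0428, 0.328 and 38.5 for 2-cell control replicates 1 to 3. The weighted 2-cell control thus rested almost wholly on replicate 3. With normexp background correction the count for 2-cell T247 was 1 and that for MGCD0103 against T247 was 0. The latter was 2 under quantile normalization and under 75th percentile scaling. The series matrix, with 8 of 10 genes and neither Phlda3 nor Gadd45g, gave counts of 0 for 1-cell MGCD0103, 1 for each inhibitor in 2-cell embryos, 2 for 4-cell T247 and 6 for the changes between stages. With the adjusted p alone the counts were 2 for 1-cell T247, 3 for 1-cell MGCD0103, 6 for each inhibitor in 2-cell embryos and 4 for MGCD0103 against T247. With 1 array left out, the counts ran from 0 to 0 (T247) and 1 to 1 (MGCD0103) in 1-cell embryos, from 3 to 4 (T247) and 3 to 3 (MGCD0103) in 2-cell embryos, from 4 to 5 for 4-cell T247, from 1 to 1 for MGCD0103 against T247, from 10 to 13 for the changes between stages and from 30 to 34 for the stage steps.

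From GV to MII oocytes, 4 values that were below 0 and not called turned positive and were called: Gadd45a was 1.10 under quantile normalization, and Gadd45a, Bbc3 and Phlda3 were 1.33, 1.19 and 1.44 under 75th percentile scaling. Bax, at -1.0, turned to as much as 0.52 under these scalings without a call, and Bbc3 and Ccng1 also changed sign in uncalled fits. With the replicate block the counts of members were 0, 1, 3, 3 and 4 against control, 1, 12 and 32 for the other tests, so it changed no call; the replicate number is the slide among controls, but correlations of same-numbered controls ran from 0.0162 to 0.22, and the numbers were not taken as pairs. Slide as a random block changed no call, nor did slide as a fixed block over the 24 untreated arrays, which was chosen after seeing the data. The share of higher among all called features moved with the scaling, in 2-cell embryos from 43.0% to 70.8% for T247 and for MGCD0103 from 49.4% to 64.5% under 75th percentile scaling, where the median features moved by 0.16 and 0.28. Under quantile normalization it was 55.6% for 4-cell T247, against 72.2%, and 75.4% and 73.3% for 1-cell T247 and MGCD0103, against 88.1% and 86.2%. Over all features, normexp called 815 and 523 in 1-cell embryos (T247, then MGCD0103) against 2462 and 1488, 3412 and 3957 in 2-cell embryos against 7229 and 7958, and 1688 for 4-cell T247 against 5145. Values near background limit Phlda3 before the 4-cell stage.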
